A study of Homo sapiens with 27 samples.

Results

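The 9 enzymes described here make serine from a glycolytic intermediate and pass a carbon of it into the folate pool. They are PHGDH, PSAT1 and PSPH of serine synthesis, the serine hydroxymethyltransferases SHMT1 and SHMT2, and the folate enzymes MTHFD1, MTHFD1L, MTHFD2 and MTHFD2L. They were taken by gene symbol from a table of RNA-seq read counts for 20268 genes, and all 9 were found. The 27 libraries came from 3 human prostate cancer cell lines: LNCaP, which is hormone-sensitive, and LNCaP95 and 22Rv1, which are hormone-insensitive. LNCaP95 was kept in medium without phenol red. Each line carried a lentiviral short hairpin: the control CTRL sh, or CPSF1 sh1 or CPSF1 sh2, which both target CPSF1, with 3 biological replicates in each of the 9 groups. All cells, controls included, were transduced with a pGIPZ vector, selected with puromycin and grown for 72 h before poly(A) RNA was sequenced. CPSF1 is the largest subunit of the cleavage and polyadenylation specificity factor, which binds the polyadenylation signal of nascent transcripts. The comparisons ask how the mRNAs of these enzymes stood when CPSF1 was depleted.

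PHGDH oxidises the glycolytic intermediate 3-phosphoglycerate, PSAT1 transaminates the product with glutamate, and PSPH removes the phosphate to release serine. SHMT1 in the cytosol and SHMT2 in mitochondria split serine into glycine and a carbon unit carried by tetrahydrofolate. In mitochondria MTHFD2 or MTHFD2L oxidises that unit and MTHFD1L releases it as formate, which MTHFD1 in the cytosol returns to folate for purine, thymidylate and methionine synthesis. Several enzymes of this pathway are known targets of the transcription factor ATF4, which responds to amino acid shortage and endoplasmic reticulum stress. Whether the other enzymes are targets of ATF4 too was not tested. In tumours mitochondrial SHMT2 and MTHFD2 are often abundant.

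Total counts ran from 8515624 to 15904518 a library (median 11058723), and single members had between 200 and 11664 reads. Levels are given as counts scaled to library size (CPM) scaled by trimmed-mean (TMM) factors over all 27 libraries, and between genes only as RPKM, which divides that level by the exon bases of the gene. The luminal keratins KRT8 and KRT18 were detected in every library, at 398 to 915 CPM and 270 to 423 CPM. Of the other lineages, leukocyte markers summed to at most 1.69 CPM and basal markers to at most 6.39 CPM, while the fibroblast markers reached 75.9 CPM in LNCaP95, where COL1A1 reached 73.9 and COL1A2 0.0693 CPM.

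CPSF1 mRNA was lower in every knockdown library than in every control of its line. In LNCaP the controls held 154, 153 and 156 CPM, the CPSF1 sh1 libraries 110, 96.2 and 102, and the CPSF1 sh2 libraries 99.8, 91.5 and 87.6. In LNCaP95 the controls held 129, 98.0 and 118 CPM, and the 6 knockdown libraries lay between 57.9 and 69.5. In 22Rv1 the controls held 194, 187 and 187 CPM, and the knockdown libraries lay between 114 and 145. Both hairpins together lowered CPSF1 by 36.4%, 46.1% and 29.3% in the 3 lines. The hairpins did not differ in CPSF1 level at an adjusted p of 0.05 in any line (adjusted p = 0.0773, 0.998 and 0.578). The fall in 22Rv1 was smaller than in LNCaP95 by 0.39 ± 0.10 (SE) on the log2 scale (adjusted p = 0.00255).

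In control cells SHMT2 and PSAT1 were the most abundant of the 9 per length and MTHFD2L the least in all 3 lines. In LNCaP the order by RPKM (mean ± SD, n = 3) was PSAT1 at 201 ± 3.26, SHMT2 at 190 ± 4.996, PHGDH at 95.9 ± 3.36, MTHFD1 at 49.8 ± 2.05, MTHFD2 at 45.6 ± 1.59, SHMT1 at 33.6 ± 1.01, PSPH at 31.1 ± 0.563, MTHFD1L at 9.34 ± 0.182 and MTHFD2L at 3.83 ± 0.317. The RPKM of SHMT2 was 241 ± 12.3 in LNCaP95 and 182 ± 0.956 in 22Rv1, above PSAT1 at 169 ± 5.85 and 125 ± 3.96. In LNCaP95 MTHFD1 (29.8 ± 1.04 RPKM) stood below SHMT1 (50.3 ± 3.43 RPKM). Neighbours in these orders were not tested against each other, and the only ones whose mean ± SD overlapped were MTHFD1 (55.7 ± 0.923 RPKM) and MTHFD2 (54.0 ± 1.36 RPKM) in 22Rv1. PHGDH differed most between the lines, at 114 ± 4.42 RPKM in LNCaP95 and 37.2 ± 0.525 RPKM in 22Rv1.

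**Figure D1:**
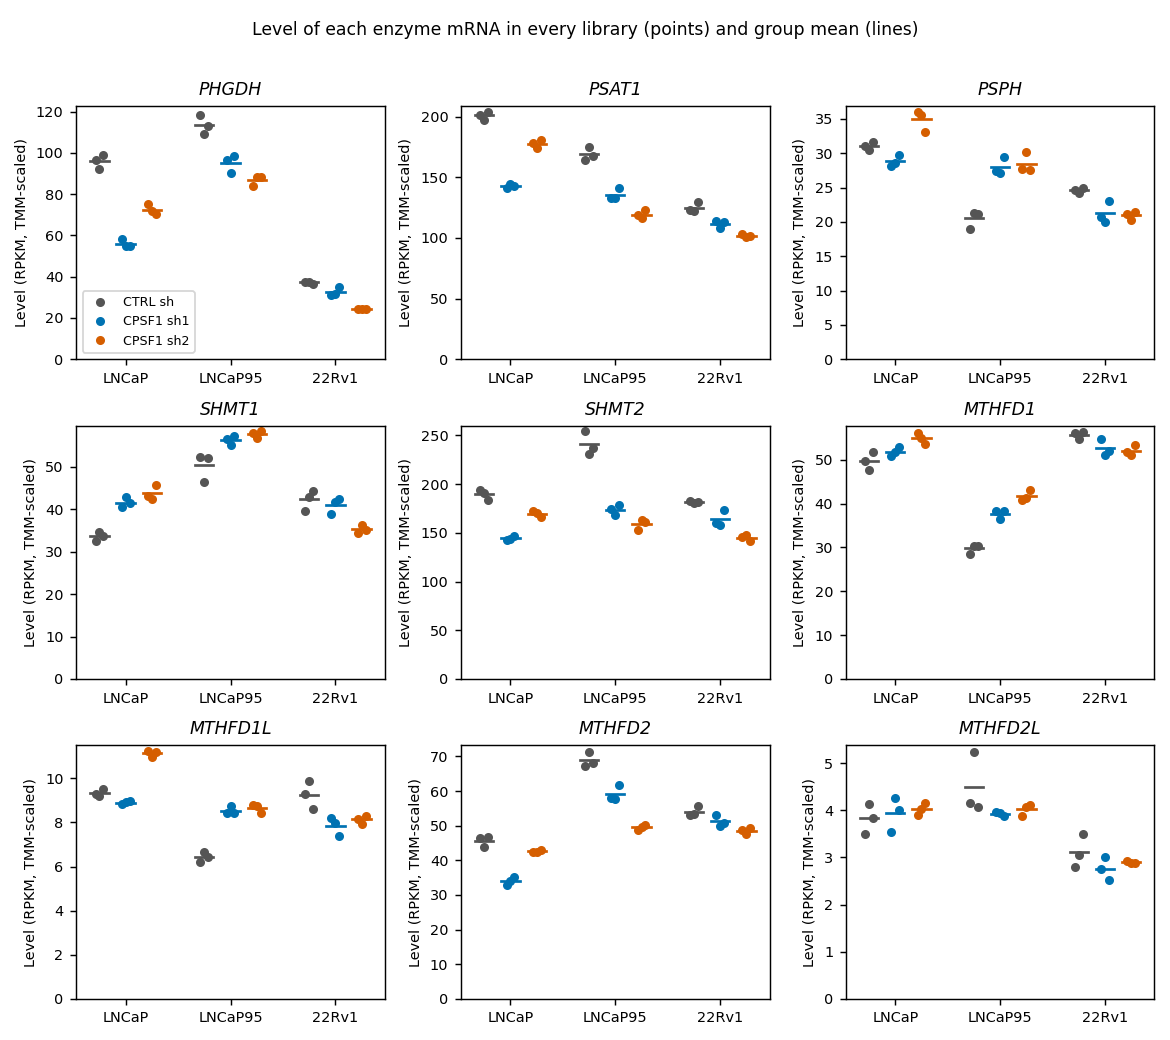
Level in RPKM (vertical axis, from 0) of each of the 9 enzyme mRNAs in each of 27 libraries (points), by cell line (horizontal axis) and hairpin (colour), with group means as lines. PHGDH, PSAT1 and SHMT2 sit lower in all knockdown libraries than in the controls of every line, while PSPH, MTHFD1 and MTHFD1L sit higher in LNCaP95.

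Between control libraries of different lines all or most members differed, as did most genes. All 9 passed the test between LNCaP95 and LNCaP (5 higher and 4 lower in LNCaP95), against 80.5% of the 10477 genes tested (40.1% higher, 40.4% lower). In 22Rv1 against LNCaP 7 of 9 passed (3 higher, 4 lower), against 82.7% of genes (40% higher, 42.6% lower), and SHMT2 (-0.08 ± 0.04, adjusted p = 0.0563) and MTHFD1L (-0.03 ± 0.06, adjusted p = 0.671) did not. In 22Rv1 against LNCaP95 all 9 (3 higher, 6 lower), against 84.5% (42.1% higher, 42.5% lower). PHGDH was lower in 22Rv1 than in LNCaP by a log2 difference of -1.39 ± 0.04 (SE) and than in LNCaP95 by -1.61 ± 0.04. MTHFD1 was higher in 22Rv1 than in LNCaP95 by 0.90 ± 0.04. MTHFD2L between LNCaP95 and LNCaP (0.21 ± 0.09, adjusted p = 0.0424) was lost without LNCaP control replicate 1 or 3 or LNCaP95 control replicate 2 (0.15, 0.21 and 0.10). That MTHFD2L call was also lost with scaling by library size alone (0.19, adjusted p = 0.0718) and in DESeq2 (0.22, adjusted p = 0.0597). SHMT2 in 22Rv1 against LNCaP passed with edgeR's filterByExpr (-0.10, adjusted p = 0.0186) and with no filter (-0.11, adjusted p = 0.00538). LNCaP95 differed from the others in medium too, and line and medium cannot be told apart there.

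With CPSF1 knocked down, PHGDH, PSAT1 and SHMT2 fell in all 3 lines, and MTHFD2 fell in LNCaP and LNCaP95. PSPH, MTHFD1 and MTHFD1L rose in LNCaP95, whereas PSPH and MTHFD1L fell in 22Rv1. SHMT1 rose in LNCaP and LNCaP95. In LNCaP 6 of 9 members passed the test (2 higher, 4 lower), where 62.1% of the 11096 genes tested did (31.1% higher, 31% lower). In LNCaP95 8 passed (4 higher, 4 lower), where 66.9% of 11143 genes did (33.2% higher, 33.7% lower). In 22Rv1 5 passed, all lower, where 26.9% of 11728 genes did (12.7% higher, 14.3% lower). The median log2 fold change of the 9 was 0.05, -0.18 and -0.21 in the 3 lines, and that of all genes tested lay within 0.01 of 0. TMM scaling places most genes near 0, so the median of all genes was largely set by it. These were bulk samples, so fewer cells of a state and less RNA per cell cannot be told apart.

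**Figure D2:**
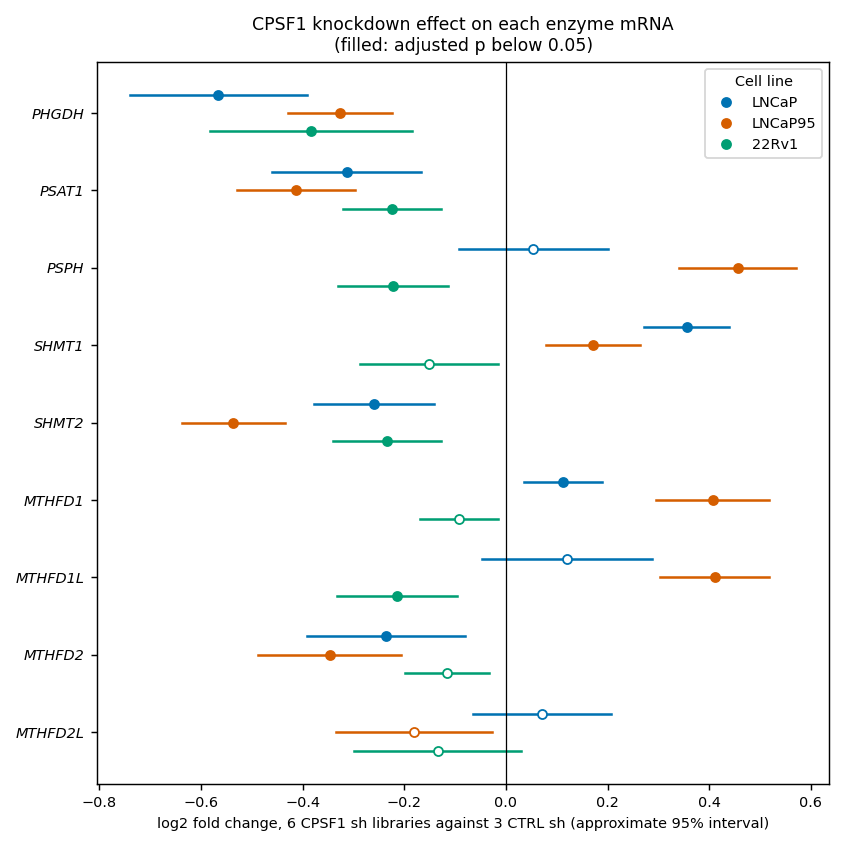
Log2 fold change (horizontal axis) of each enzyme mRNA (vertical axis) for 6 CPSF1 sh against 3 CTRL sh libraries in each line (colour), with approximate 95% intervals as bars; filled points have an adjusted p below 0.05. PHGDH, PSAT1 and SHMT2 lie left of 0 in all lines, while PSPH, MTHFD1 and MTHFD1L lie to the right in LNCaP95 and to the left in 22Rv1.

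PHGDH, the entry enzyme of serine synthesis (chr1:120202421-120286838, plus strand of GRCh37, 5622 exon bases), fell in LNCaP by 32.4%, in LNCaP95 by 20.2% and in the 22Rv1 line by 23.3%. In LNCaP the controls held 544, 519 and 556 CPM, the CPSF1 sh1 libraries 327, 310 and 308, and the CPSF1 sh2 libraries 422, 405 and 395. The 3 groups of LNCaP did not overlap, with CPSF1 sh1 lowest. In LNCaP95 the controls held 664, 615 and 637 CPM, the CPSF1 sh1 libraries 542, 508 and 554, and the CPSF1 sh2 libraries 471, 498 and 497. In 22Rv1 PHGDH was at 210, 212 and 206 CPM in the controls, 176, 177 and 197 with CPSF1 sh1, and 138, 137 and 138 with CPSF1 sh2. In both other lines CPSF1 sh2 was lowest, and no knockdown library reached the controls. The log2 fold changes were -0.57 ± 0.09 (SE; adjusted p = 6.04e-05), -0.33 ± 0.05 (adjusted p = 0.000136) and -0.38 ± 0.10 (adjusted p = 0.0127). The PHGDH fall in 22Rv1 missed the threshold without control replicate 1 or 2 (adjusted p from 0.00041 to 0.0549 over the 9 fits that left out 1 library), with log2 fold changes from -0.45 to -0.34.

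PSAT1, the aminotransferase of the pathway (chr9:80912059-80945009, plus strand, 2188 exon bases), fell by 19.5%, 24.9% and 14.4%. The LNCaP controls held 441, 432 and 446 CPM, the CPSF1 sh1 libraries 310, 316 and 312, and the CPSF1 sh2 libraries 389, 381 and 395. In LNCaP95 PSAT1 was at 358, 383 and 366 CPM in the controls, 290, 291 and 308 with CPSF1 sh1, and 260, 254 and 269 with CPSF1 sh2. In 22Rv1 it was at 269, 267 and 283 CPM in the controls, 249, 237 and 248 with CPSF1 sh1, and 225, 221 and 222 with CPSF1 sh2. No PSAT1 value of a knockdown library overlapped the controls of its line. The log2 fold changes were -0.31 ± 0.08, -0.41 ± 0.06 and -0.22 ± 0.05 (adjusted p = 0.00214, 5.66e-05 and 0.00404).

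PSPH, the phosphatase that completes serine synthesis (chr7:56078744-56119297, minus strand, 2515 exon bases), rose in LNCaP95 and fell in 22Rv1. In LNCaP95 it rose by 37.2%, from 47.7, 53.7 and 53.4 CPM in the controls to 68.9, 68.1 and 74.0 with CPSF1 sh1 and 69.8, 75.8 and 69.2 with CPSF1 sh2 (log2 fold change 0.46 ± 0.06, adjusted p = 2.33e-05). In 22Rv1 PSPH fell by 14.3%, from 61.9, 60.9 and 62.8 CPM to between 50.2 and 58.0 over the 6 knockdown libraries (-0.22 ± 0.06, adjusted p = 0.00847). That PSPH call was lost in a fit of the CPSF1 sh1 and control libraries only (-0.21, adjusted p = 0.0540). In LNCaP the controls of PSPH held 78.1, 76.7 and 79.6 CPM, the CPSF1 sh1 libraries lay below them at 70.8, 72.0 and 74.7, and the CPSF1 sh2 libraries above them at 90.7, 89.6 and 83.2. Over both hairpins the LNCaP value was 0.05 ± 0.07 (adjusted p = 0.543). PSAT1, PSPH, SHMT1, MTHFD1 and MTHFD2 have pseudogene copies, and how reads that map to several places were counted is not given in the sources used here. Reads shared with such copies were not measured.

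The mitochondrial SHMT2 and the cytosolic SHMT1 moved apart in LNCaP and LNCaP95. SHMT2 (chr12:57623110-57628718, plus strand, 3361 exon bases; its last exon overlaps NDUFA4L2 on the opposite strand, and the counting was stranded) fell in all 3 lines, with changes of -16.5%, -31.1% and -14.98%. In LNCaP95 the controls of SHMT2 held 855, 776 and 796 CPM, the CPSF1 sh1 libraries 588, 566 and 600, and the CPSF1 sh2 libraries 515, 550 and 542. In LNCaP its controls held between 619 and 652 CPM and the knockdown libraries between 478 and 578, and in 22Rv1 the controls held between 607 and 614 and the knockdown libraries between 477 and 582. None of these SHMT2 ranges overlapped, and the log2 fold changes were -0.26 ± 0.06, -0.54 ± 0.05 and -0.23 ± 0.05 (adjusted p = 0.00163, 2.42e-06 and 0.00582).

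SHMT1 (chr17:18231187-18266856, minus strand, 3017 exon bases) rose by 28.0% in LNCaP, from 98.1, 104 and 102 CPM to 122, 129 and 125 with CPSF1 sh1 and 130, 128 and 137 with CPSF1 sh2 (log2 fold change 0.36 ± 0.04, adjusted p = 4.8e-06). In LNCaP95 SHMT1 rose by 12.7%, from 158, 140 and 157 CPM to between 166 and 176 (0.17 ± 0.05, adjusted p = 0.00595). In 22Rv1 its controls held 119, 129 and 134 CPM, which the CPSF1 sh1 libraries (117, 126 and 128 CPM) overlapped and the CPSF1 sh2 libraries (104, 109 and 106 CPM) did not. The 22Rv1 value over both hairpins was -0.15 ± 0.07 (adjusted p = 0.121). SHMT1 in 22Rv1 passed the test without CPSF1 sh1 replicate 3 (log2 fold change -0.18; adjusted p from 0.0209 to 0.367 over the 9 fits that left out 1 library).

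Within a library the ratio of SHMT2 to SHMT1 reads per exon base needs no scaling between libraries. It was 5.65 ± 0.273 (SD, n = 3) in LNCaP controls, 3.48 ± 0.0995 with CPSF1 sh1 and 3.89 ± 0.203 with CPSF1 sh2. In LNCaP95 the SHMT2 to SHMT1 ratio was 4.79 ± 0.229, 3.09 ± 0.0350 and 2.77 ± 0.117, and in 22Rv1 4.30 ± 0.275, 4.004 ± 0.177 and 4.12 ± 0.103. The 3 groups of 22Rv1 overlapped, while in the other lines each knockdown library lay below each control. These ratios are a description with no test.

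**Figure D3:**
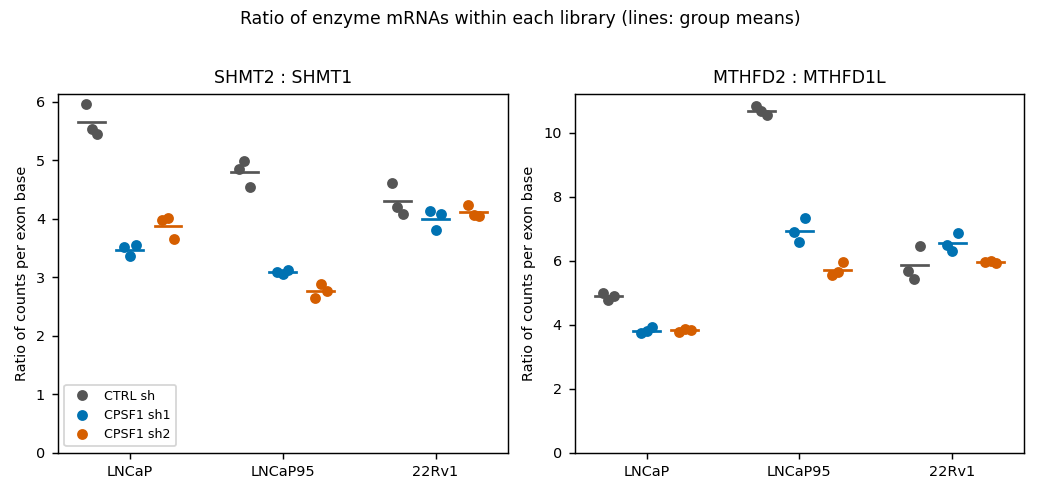
Ratio of SHMT2 to SHMT1 (left) and of MTHFD2 to MTHFD1L (right) in counts per exon base (vertical axes, from 0) in each library, by line (horizontal axis) and hairpin (colour), with group means as lines. Both ratios are lower in every knockdown library than in the controls of LNCaP and LNCaP95, and overlap them in 22Rv1.

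MTHFD2, the mitochondrial dehydrogenase and cyclohydrolase (chr2:74425689-74444692, plus strand, 4870 exon bases), fell by 15.1% in LNCaP and 21.4% in LNCaP95. In LNCaP its controls held 226, 213 and 227 CPM, the CPSF1 sh1 libraries 161, 165 and 171, and the CPSF1 sh2 libraries 207, 206 and 210, the last close under the lowest control. In LNCaP95 MTHFD2 was at 328, 347 and 331 CPM in the controls, 282, 281 and 301 with CPSF1 sh1, and 238, 241 and 245 with CPSF1 sh2. In 22Rv1 the MTHFD2 controls (258, 261 and 271 CPM) and the knockdown libraries (231 to 259 CPM) overlapped. The log2 fold changes of MTHFD2 were -0.24 ± 0.08 (adjusted p = 0.0182), -0.35 ± 0.07 (adjusted p = 0.000956) and -0.12 ± 0.04 (adjusted p = 0.0570). In LNCaP the MTHFD2 call was lost without control replicate 1 or 3 (log2 fold changes -0.22 and -0.22; adjusted p from 0.0051 to 0.0681 over the 9 fits that left out 1 library). In 22Rv1 MTHFD2 passed without CPSF1 sh1 replicate 1 or 3 (-0.13 and -0.12, with adjusted p from 0.0238 to 0.224 over such fits). It also passed there in DESeq2 (-0.11, adjusted p = 0.0483), with edgeR's filterByExpr (-0.12, adjusted p = 0.0453) and with CPSF1 sh2 alone (-0.15, adjusted p = 0.000370).

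MTHFD2L, a second mitochondrial enzyme of the same step (chr4:74979891-75168816, plus strand, 7949 exon bases), was the member for which fewest reads were counted per length, and it passed the pooled test in no line. Its CPM ranged from 27.8 to 33.9 in LNCaP, 30.8 to 41.7 in LNCaP95 and 20.0 to 27.8 in 22Rv1, with controls and knockdown libraries overlapping in all. Its log2 fold changes were 0.07 ± 0.07, -0.18 ± 0.08 and -0.13 ± 0.08 (adjusted p = 0.389, 0.0562 and 0.255). MTHFD2L in LNCaP95 was lower past the threshold without control replicate 1 or 3 (-0.24 and -0.24; adjusted p from 0.0306 to 0.438 over the 9 fits that left out 1 library), where replicate 2 held the highest control value, and the log2 fold change of MTHFD2L was -0.06 without that replicate. It also passed with filterByExpr (-0.22) and with no filter (-0.23), at adjusted p of 0.0228 and 0.0216.

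MTHFD1L, the mitochondrial formyltetrahydrofolate synthetase (chr6:151186685-151423023, plus strand, 4945 exon bases), rose by 32.9% in LNCaP95. Its controls there held 30.7, 33.0 and 31.8 CPM, the CPSF1 sh1 libraries 41.6, 43.3 and 41.6, and the CPSF1 sh2 libraries 43.5, 43.3 and 41.6 (log2 fold change 0.41 ± 0.05, adjusted p = 3.03e-05). In 22Rv1 MTHFD1L fell by 13.8%, from 46.0, 48.8 and 42.5 CPM to between 36.5 and 41.0 (-0.21 ± 0.06, adjusted p = 0.0172). That call was lost without control replicate 1 or 2 of 22Rv1 (-0.21 and -0.16; adjusted p from 0.0123 to 0.131 over the 9 fits that left out 1 library). In LNCaP the MTHFD1L controls held 46.0, 45.4 and 47.2 CPM, the CPSF1 sh1 libraries lay under them (43.6, 44.1 and 44.3) and the CPSF1 sh2 libraries above (55.6, 54.2 and 55.4), and the pooled value was 0.12 ± 0.09 (adjusted p = 0.235).

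MTHFD1, the cytosolic trifunctional enzyme (chr14:64854749-64926722, plus strand, 4420 exon bases), rose by 32.6% in LNCaP95, from 126, 135 and 134 CPM to 169, 161 and 169 with CPSF1 sh1 and 180, 182 and 190 with CPSF1 sh2 (log2 fold change 0.41 ± 0.06, adjusted p = 4.3e-05). In LNCaP it rose by 8.09%, from 220, 211 and 229 CPM to between 225 and 248, with the groups overlapping (0.11 ± 0.04, adjusted p = 0.0210). That MTHFD1 call was lost without control replicate 1, control replicate 2 or CPSF1 sh2 replicate 2 (0.11, 0.08 and 0.10; adjusted p from 0.0107 to 0.132 over the 9 fits that left out 1 library). The LNCaP call was also lost with no filter (0.09, adjusted p = 0.0930) and with CPSF1 sh1 alone (0.07, adjusted p = 0.131). In 22Rv1 MTHFD1 was at 248, 242 and 249 CPM in the controls and between 225 and 242 with CPSF1 knocked down (-0.09 ± 0.04, adjusted p = 0.0984). Over the 9 members the controls and knockdown libraries did not overlap for 5 in LNCaP, 8 in LNCaP95 and 5 in 22Rv1, where 55.8%, 60% and 28.2% of genes tested did not.

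MTHFD2 fell and MTHFD1L rose in LNCaP95, and the ratio of their reads per exon base sets them side by side within each library. It was 10.7 ± 0.141 (SD, n = 3) in the LNCaP95 controls, 6.94 ± 0.375 with CPSF1 sh1 and 5.73 ± 0.221 with CPSF1 sh2. In LNCaP the MTHFD2 to MTHFD1L ratio was 4.89 ± 0.115, 3.82 ± 0.0919 and 3.83 ± 0.0418, and in 22Rv1 5.86 ± 0.544, 6.55 ± 0.288 and 5.96 ± 0.0239, with the 22Rv1 groups overlapping.

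The knockdown effects were compared between lines as an interaction in 1 fit of all 27 libraries, in which 10317 genes were tested. Between LNCaP95 and LNCaP 4 of 9 members differed, 3 higher and 1 lower (50.9% of genes did, 26.7% higher and 24.1% lower): the effect was higher in LNCaP95 for PSPH (0.42 ± 0.09, adjusted p = 0.000444), MTHFD1 (0.31 ± 0.06, adjusted p = 0.000156) and MTHFD1L (0.31 ± 0.10, adjusted p = 0.0109), and lower for SHMT2 (-0.26 ± 0.09, adjusted p = 0.0149). Between 22Rv1 and LNCaP 4 differed (40.4% of genes did, 20.4% higher and 20% lower), all lower in 22Rv1: PSPH (-0.26 ± 0.09), SHMT1 (-0.49 ± 0.08), MTHFD1 (-0.19 ± 0.06) and MTHFD1L (-0.32 ± 0.10). Between 22Rv1 and LNCaP95 5 differed (53.7% of genes did, 26.6% higher and 27.1% lower), with PSPH (-0.68 ± 0.10), SHMT1 (-0.33 ± 0.08), MTHFD1 (-0.50 ± 0.06) and MTHFD1L (-0.63 ± 0.10) lower in 22Rv1 and SHMT2 higher (0.30 ± 0.09). With both directions counted together, these shares of the members are near those of all genes. By direction they were less alike: between 22Rv1 and LNCaP all 4 were lower, where 20% of genes were.

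PHGDH, PSAT1, MTHFD2 and MTHFD2L passed the test of a difference in effect between no pair of lines. With edgeR's filterByExpr in place of the 2 CPM filter, MTHFD2L (-0.27, adjusted p = 0.0445) and SHMT1 (-0.20, adjusted p = 0.0412) passed between LNCaP95 and LNCaP (adjusted p 0.0445 to 0.235 and 0.0412 to 0.366 over the settings tried). The approximate 95% intervals of these differences for PHGDH ran from -0.01 to 0.52 (LNCaP95 minus LNCaP), -0.08 to 0.47 (22Rv1 minus LNCaP) and -0.33 to 0.21 (22Rv1 minus LNCaP95), and so do not show that the effects were alike. The call of SHMT2 between LNCaP95 and LNCaP was lost without LNCaP95 control replicate 1 (-0.22; adjusted p from 0.00612 to 0.0534 over the 27 fits that left out 1 library). It was also lost with scaling by library size alone (-0.18; adjusted p from 0.0076 to 0.0939 over the other settings), under which PHGDH passed (0.34; adjusted p from 0.0406 to 0.216). Between 22Rv1 and LNCaP, PSPH was lost without 22Rv1 control replicate 1 or 3, LNCaP control replicate 2 or LNCaP CPSF1 sh2 replicate 2 (-0.26, -0.25, -0.25 and -0.23; adjusted p from 0.0107 to 0.0618). MTHFD1 was lost there without LNCaP control replicate 2 (-0.16; adjusted p from 0.0106 to 0.0641), which left 2 members. Other calls were gained when 1 library was left out. MTHFD2 between 22Rv1 and LNCaP95 passed without LNCaP95 CPSF1 sh1 replicate 3 (0.27), and SHMT1 between LNCaP95 and LNCaP without LNCaP95 control replicate 2 (-0.22). MTHFD2L between LNCaP95 and LNCaP passed without LNCaP control replicate 2, LNCaP CPSF1 sh1 replicate 1, or LNCaP95 control replicate 1 or 3 (-0.30 to -0.27).

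The hairpins differed on the enzymes. Where they did, PHGDH, PSAT1 and SHMT2 were lower with CPSF1 sh1 in LNCaP and lower with CPSF1 sh2 in LNCaP95 and 22Rv1. In LNCaP 6 of 9 members were higher with CPSF1 sh2 than with CPSF1 sh1 (14.8% of genes differed, 6.53% higher and 8.24% lower), by 0.37 ± 0.04 for PHGDH, 0.31 ± 0.03 for PSAT1, 0.32 ± 0.04 for MTHFD2, 0.32 ± 0.05 for MTHFD1L, 0.27 ± 0.05 for PSPH and 0.23 ± 0.03 for SHMT2. In LNCaP95 PHGDH, PSAT1, SHMT2 and MTHFD2 were lower with CPSF1 sh2 (34.1% of genes differed, 17.7% lower), by 0.13 to 0.25 on the log2 scale, and MTHFD1 was higher by 0.15 ± 0.04 (16.5% of genes were). In 22Rv1 PHGDH, PSAT1, SHMT1 and SHMT2 were lower with CPSF1 sh2 (11.3% of genes differed, 5.47% higher and 5.85% lower), PHGDH by a log2 difference of -0.41 ± 0.05. The order of the hairpins was not compared between lines by a test of its own. In LNCaP95 the PHGDH and SHMT2 calls were lost without CPSF1 sh1 replicate 1 or 3 or CPSF1 sh2 replicate 1 or 3, and that of MTHFD1 without CPSF1 sh1 replicate 2 or CPSF1 sh2 replicate 3. Between 2 and 5 members passed over the 9 fits that left out 1 LNCaP95 library. In 22Rv1 the PSAT1 difference (-0.14 ± 0.04, adjusted p = 0.0455) was lost in 8 of the 9 such fits, and SHMT1 without CPSF1 sh1 replicate 2 or CPSF1 sh2 replicate 1 or 3, and SHMT2 without CPSF1 sh2 replicate 3, so that between 1 and 4 members passed.

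Each hairpin alone was next set against the controls. With CPSF1 sh1, 5 of 9 members passed the test in LNCaP, 1 higher and 4 lower (62.6% of genes, 31.2% higher and 31.3% lower). In LNCaP95 9 passed, 4 higher and 5 lower (66.4%, 33.1% higher and 33.3% lower). In 22Rv1 5 passed, all lower (19.9%, 8.79% higher and 11.1% lower). With CPSF1 sh2, 8 passed in LNCaP, 4 higher and 4 lower (64.6% of genes, 32.1% higher and 32.5% lower). In LNCaP95 8 passed, 4 higher and 4 lower (73.4%, 36.5% higher and 36.9% lower). In 22Rv1 7 passed, all lower (40%, 19.1% higher and 20.9% lower). The members that did not pass with CPSF1 sh1 were PSPH, MTHFD1, MTHFD1L and MTHFD2L in LNCaP and SHMT1, MTHFD1, MTHFD2 and MTHFD2L in 22Rv1. Those that did not pass with CPSF1 sh2 were MTHFD2L in all 3 lines and MTHFD1 in 22Rv1. PHGDH, PSAT1 and SHMT2 fell with both hairpins in all 3 lines, from -0.15 for SHMT2 with CPSF1 sh1 in 22Rv1 to -0.77 for PHGDH with CPSF1 sh1 in LNCaP. PSPH and MTHFD1L rose in LNCaP with CPSF1 sh2 (0.18 ± 0.05 and 0.26 ± 0.05) and not with CPSF1 sh1 (-0.09 ± 0.05 and -0.06 ± 0.05). The falls with CPSF1 sh1 in 22Rv1 were the least firm: without CPSF1 sh1 replicate 2 only MTHFD1L of the 5 passed. Without control replicate 1 or 2 there were 2 that passed, and 3 without control replicate 3. The PSPH fall with CPSF1 sh1 in 22Rv1 was lost in DESeq2 (-0.21, adjusted p = 0.0509). In LNCaP the MTHFD2 fall with CPSF1 sh2 (-0.09 ± 0.04, adjusted p = 0.0428) was lost without control replicate 1 or 3 or CPSF1 sh2 replicate 1 or 2. In LNCaP95 the MTHFD2L fall with CPSF1 sh1 (-0.20 ± 0.08, adjusted p = 0.0352) was lost without control replicate 2 (-0.08) or any 1 of the CPSF1 sh1 libraries (-0.21 to -0.19). It was also lost with scaling by library size alone (-0.10) and in DESeq2 (-0.20), with adjusted p of 0.283 and 0.0565. In 22Rv1 the MTHFD1L fall with CPSF1 sh2 (-0.19 ± 0.07, adjusted p = 0.0333) was lost without control replicate 1 or 2 or any 1 of the CPSF1 sh2 libraries.

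**Figure D4:**
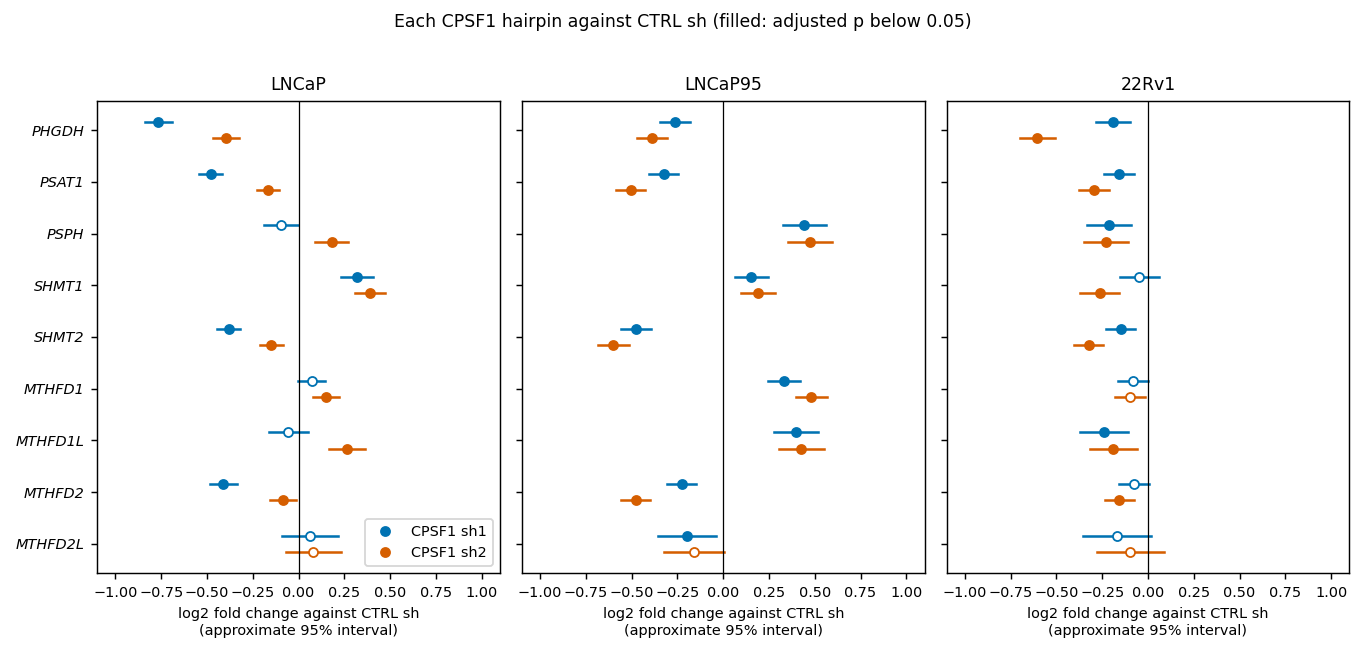
Log2 fold change against CTRL sh (horizontal axes) of each enzyme mRNA (vertical axis) with CPSF1 sh1 and CPSF1 sh2 (colour) in LNCaP, LNCaP95 and 22Rv1 (panels), with approximate 95% intervals as bars; filled points have an adjusted p below 0.05. The points of PHGDH, PSAT1, SHMT2 and MTHFD2 lie further left with CPSF1 sh1 in LNCaP and with CPSF1 sh2 in the other lines.

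Over the 27 libraries, with each gene's log2 level centred on its line, the enzymes fell into sets of like pattern. Pearson's r was between 0.81 and 0.97 among PHGDH, PSAT1, SHMT2 and MTHFD2, and between 0.82 and 0.89 among PSPH, MTHFD1 and MTHFD1L. MTHFD1 was opposed to SHMT2 at -0.66. These correlations are across libraries that share controls, hairpin and depth, and are given as a description with no p. Of 10316 other genes, those most like PHGDH were PCK2 (r = 0.96), NREP (0.92), EIF4EBP1 (0.92), SLC1A5 (0.92) and DBP (0.92). Those most like MTHFD2 were PSAT1 (0.97), ECT2 (0.95), ASNS (0.95), RELL1 (0.92) and GPSM2 (0.92). PCK2, the mitochondrial phosphoenolpyruvate carboxykinase, fell by 0.81, 0.40 and 0.50 on the log2 scale in the 3 lines.

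**Figure D5:**
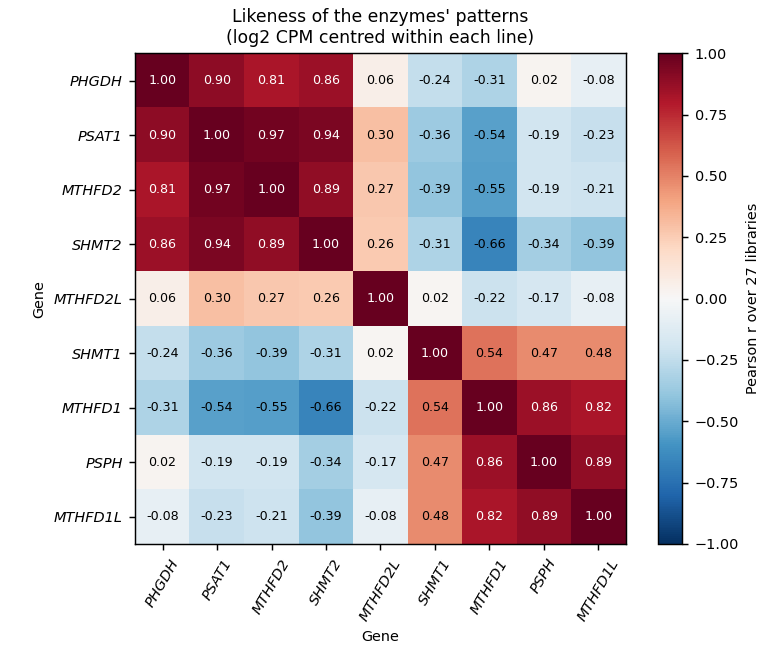
Pearson's r between the log2 CPM of each pair of the 9 enzymes (both axes) over 27 libraries, after centring each gene on its line (colour from -1 to 1, values printed). PHGDH, PSAT1, MTHFD2 and SHMT2 form a block from 0.81 to 0.97, and MTHFD1, PSPH and MTHFD1L a block from 0.82 to 0.89.

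The promoters of enzymes from either set are shown because their mRNAs moved together. Windows from 250 bases before to 50 after the annotated start were taken from RefSeq (GRCh38.p14). It held a window for 7 of the 9 members. PSPH and SHMT2 had none and were not searched. The letters TGATGNAA, the core of the element that ATF4 with C/EBP partners is known to bind, and CACGTG, the E-box, were searched on both strands, and matches are in capitals.
PHGDH, chr1:119711684-119711983, plus strand: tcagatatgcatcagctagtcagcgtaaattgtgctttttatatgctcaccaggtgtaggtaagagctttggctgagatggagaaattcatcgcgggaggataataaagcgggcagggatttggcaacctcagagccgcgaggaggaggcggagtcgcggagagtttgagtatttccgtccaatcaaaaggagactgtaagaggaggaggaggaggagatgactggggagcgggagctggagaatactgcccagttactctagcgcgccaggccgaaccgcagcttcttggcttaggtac
MTHFD2, chr2:74198365-74198664, plus strand: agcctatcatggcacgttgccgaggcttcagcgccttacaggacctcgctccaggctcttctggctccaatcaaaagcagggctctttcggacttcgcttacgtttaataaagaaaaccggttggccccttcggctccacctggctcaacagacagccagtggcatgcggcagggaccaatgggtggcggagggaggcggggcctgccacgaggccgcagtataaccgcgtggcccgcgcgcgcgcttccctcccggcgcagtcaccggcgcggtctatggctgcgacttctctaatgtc
MTHFD1, chr14:64388103-64388402, plus strand: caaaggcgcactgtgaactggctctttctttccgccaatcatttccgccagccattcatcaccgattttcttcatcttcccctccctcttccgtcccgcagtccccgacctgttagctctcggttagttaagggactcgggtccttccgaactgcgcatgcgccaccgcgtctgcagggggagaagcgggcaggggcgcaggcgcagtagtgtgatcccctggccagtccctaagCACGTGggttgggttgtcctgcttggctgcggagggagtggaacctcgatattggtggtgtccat
MTHFD1L, chr6:150866236-150866535, plus strand: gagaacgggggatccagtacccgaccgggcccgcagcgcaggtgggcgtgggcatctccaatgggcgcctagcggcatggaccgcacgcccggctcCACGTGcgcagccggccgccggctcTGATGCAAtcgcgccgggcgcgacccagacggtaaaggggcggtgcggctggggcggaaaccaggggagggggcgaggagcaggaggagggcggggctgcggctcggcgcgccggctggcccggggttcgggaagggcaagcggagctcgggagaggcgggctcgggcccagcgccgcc
TGATGNAA was in 3 overlapping windows of the 4 of MTHFD1L, which hold the same match. It was in no window of the other members searched, and in 3.62% of 35116 windows of this length. CACGTG was in the MTHFD1 window and in the same 3 MTHFD1L windows, against 7.26% of all. The E-box began 15 bases before the start in MTHFD1, and in the MTHFD1L window shown the E-box began 154 and TGATGCAA 129 bases before it. A match describes these letters only, and a window without one says nothing of sequence outside it. The 4 windows shown differ in GC content, from 52.7% for PHGDH to 76.7% for MTHFD1L.

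Other genes around the pathway were read from lists. Of 12 genes made up of ATF4 and other known targets of it, 4 rose and 4 fell in LNCaP, 1 rose and 11 fell in LNCaP95, and 1 rose and 7 fell in 22Rv1, with median log2 fold changes of -0.10, -0.90 and -0.32. Over all genes 62.1% were called in LNCaP (31.1% higher, 31% lower), 66.9% in LNCaP95 (33.2% higher, 33.7% lower) and 26.9% in 22Rv1 (12.7% higher, 14.3% lower), and the counts of this and the following lists stand beside those shares. ATF4 itself fell in all 3 lines (-0.35 ± 0.04, -0.63 ± 0.05 and -0.31 ± 0.05), as did ASNS, asparagine synthetase (-0.27 ± 0.10, -0.61 ± 0.11 and -0.31 ± 0.06), and VLDLR, a lipoprotein receptor (-0.84 ± 0.08, -0.98 ± 0.09 and -0.72 ± 0.11). VLDLR was the largest fall of the list in LNCaP and 22Rv1, and NUPR1, a stress-responsive chromatin protein, in LNCaP95 (-1.88 ± 0.15). The largest rise was ATF5 in LNCaP and LNCaP95 (0.66 ± 0.05 and 0.51 ± 0.06) and SESN2 in 22Rv1 (0.32 ± 0.11). MTHFD1L, the only one of the 7 members searched with TGATGNAA in a window, stood at 0.12 ± 0.09, 0.41 ± 0.05 and -0.21 ± 0.06 in the 3 lines. A link of the enzyme mRNAs to ATF4 was not tested.

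Of 17 genes of folate handling, 14 were tested in LNCaP and 15 in the other lines. In LNCaP 7 rose and 1 fell, in LNCaP95 8 rose and 2 fell, and in 22Rv1 1 rose and 3 fell (62.1%, 66.9% and 26.9% of all genes were called), with medians of 0.12, 0.23 and -0.00404. MTR, methionine synthase, fell in all 3 (-0.59 ± 0.05, -0.49 ± 0.08 and -0.24 ± 0.07). The largest rise in LNCaP was FTCD (1.05 ± 0.17), and the largest fall in 22Rv1 was ALDH1L2, a mitochondrial formyltetrahydrofolate dehydrogenase (-0.73 ± 0.10).

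Of 7 transporters of serine and glycine, none rose and 3 fell in LNCaP, 3 rose and 4 fell in LNCaP95, and none rose and 4 fell in 22Rv1, where 62.1%, 66.9% and 26.9% of all genes were called. SLC1A5, a neutral amino acid exchanger at the plasma membrane, fell in all 3 lines (-0.70 ± 0.11, -0.95 ± 0.07 and -0.48 ± 0.09), as did SFXN3, a mitochondrial serine carrier (-0.83 ± 0.05, -0.52 ± 0.14 and -0.46 ± 0.06). The largest rise in LNCaP95 and the largest fall in 22Rv1 were both SLC1A4 (0.40 ± 0.08 and -0.53 ± 0.11). Of the 4 genes of the glycine cleavage system, AMT fell in LNCaP (-1.12 ± 0.16) and rose in 22Rv1 (0.36 ± 0.13), GLDC fell in LNCaP (-0.34 ± 0.12), DLD rose in LNCaP (0.22 ± 0.03), and GCSH rose in LNCaP and LNCaP95 (0.32 ± 0.06 and 0.19 ± 0.05). Only 2 of them were tested in LNCaP95.

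The 4 glycolytic enzymes on either side of 3-phosphoglycerate, the substrate of PHGDH, all fell in LNCaP95, where 33.7% of all genes were lower. PGK1, which makes 3-phosphoglycerate, fell in all 3 lines (-0.83 ± 0.05, -0.97 ± 0.07 and -0.29 ± 0.04), as did ENO1 (-0.24 ± 0.03, -0.66 ± 0.04 and -0.13 ± 0.04). GAPDH fell in LNCaP (-0.11 ± 0.04) and LNCaP95 (-0.63 ± 0.04) and stood at -0.06 ± 0.04 in 22Rv1. PGAM1, which takes 3-phosphoglycerate on down glycolysis, fell in LNCaP95 (-0.35 ± 0.04) and stood at -0.01 ± 0.03 in LNCaP and -0.02 ± 0.04 in 22Rv1.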

How the data were processed

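RNA-seq libraries of 27 cultures in 9 groups were grouped by the titles in the labels. The authors aligned reads with HISAT2 to GRCh37 and counted them per gene, stranded, with Subread's featureCounts, and the deposited values are raw counts. The submitters' processing notes give HISAT2 2.1.0 and Subread 2.0.3. How multi-mapping reads were treated is not given in the sources used here. The exon bases and positions are those of the table.

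Counts were tested with edgeR 4.0.16 in R 4.3.3: the quasi-likelihood F-test in its legacy form, TMM factors, genes above 2 CPM in every library of the fit, and Benjamini-Hochberg adjustment over all genes tested with a threshold of 0.05. SE is the log2 fold change divided by the root of F, and intervals take the normal quantile at 95%. Each line was fitted on its 9 libraries, hairpins pooled (6 against 3) or apart, differences between lines on all 27, and control levels on the 9 controls. All p-values measure the spread between cultures of 1 line. Where the hairpins were pooled, as also in the fit of all 27 libraries, that spread includes the difference between hairpins. For likeness, 0.5 CPM was added before log2. The scripts were tested on simulated data.

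All members entered every comparison. Of each list the genes called in all 3 lines in 1 direction, and the largest rise and fall per line among those called, are named, besides GLDC and DLD, named after their values were seen. Some genes of the marker and folate lists, risers of the folate list included, are not reported here. The members and lists were chosen with earlier results of these data known. Alternatives were RLE factors, library size alone, DESeq2 1.42.0, edgeR's newer quasi-likelihood, filterByExpr, no filter, the replicate number as a block, each hairpin alone, and each library left out.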

Additional observations from a re-analysis of the deposited data

Results flagged for a closer look

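Members were set apart where their knockdown effect differed between 2 lines by the interaction test. Between LNCaP95 and LNCaP the log2 difference of effects was 0.42 for PSPH, 0.31 for MTHFD1, 0.31 for MTHFD1L and -0.26 for SHMT2. Between 22Rv1 and LNCaP it was -0.26 for PSPH, -0.49 for SHMT1, -0.19 for MTHFD1 and -0.32 for MTHFD1L. Between 22Rv1 and LNCaP95 it was -0.68 for PSPH, -0.33 for SHMT1, 0.30 for SHMT2, -0.50 for MTHFD1 and -0.63 for MTHFD1L. The 3 comparisons share libraries, since each line enters 2 of them. Groups of 3 were too small for a check of single outlying libraries.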

How the results depend on the processing

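No member changed direction where it had been called. With other settings (scaling, filter, test, replicate block, 1 hairpin) 1125 of the members' values kept their side of the threshold, 14 lost it, 18 gained it and 4 moved. Leaving out 1 library, 1852 kept it, 66 lost it, 16 gained it and 10 moved. The count called in 22Rv1 was 8 with CPSF1 sh2 alone, where 6050 genes were called in place of 3160, and 1853 genes were called with CPSF1 sh1 alone. DESeq2 called 1061 genes between the hairpins in LNCaP, against 1639. With 1 library left out, members called ranged from 3 to 7 for the knockdown in 22Rv1, 2 to 5 between hairpins in LNCaP95, 1 to 5 for CPSF1 sh1 in 22Rv1, 1 to 4 between hairpins in 22Rv1, and 2 to 4 for 22Rv1 minus LNCaP. The causes were not tested.

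With a replicate block 6, 8 and 5 members were called for the knockdown in LNCaP, LNCaP95 and 22Rv1, and the only call it changed was PSAT1 between hairpins in 22Rv1 (-0.14, adjusted p = 0.0555), leaving 3 there. Samples of the same number correlated over 0.1 in 3 of 9 pairs in LNCaP, 3 in LNCaP95 and 1 in 22Rv1. Samples of different numbers did so in 0 of 18 pairs in LNCaP, 4 in LNCaP95 and 1 in 22Rv1. The numbers were not taken as pairs, though in LNCaP only samples of the same number passed 0.1. No paired analysis was possible for control levels because different lines share no culture.

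Groups of 3 libraries and 200 to 11664 reads a member set the precision, and the intervals cover spread between cultures of 1 line. With hairpins pooled, the intervals also cover the difference between hairpins.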
